A study of Mus musculus with 12 samples.

Results

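The transcripts described here are those of 9 neuron marker genes, *Chat*, *Nos1*, *Vip*, *Tac1*, *Elavl4*, *Uchl1*, *Prph*, *Ret*, and *Snap25*, which were chosen by name from the 54532 genes of the series. Each was followed in colon and urinary bladder of adult male mice in which the transcriptional co-activators YAP (*Yap1*) and TAZ (*Wwtr1*) had been deleted in smooth muscle (Y/T KO) and in control (Ctrl) mice. Y/T KO mice carried floxed *Yap1* and *Wwtr1* together with a Cre recombinase that tamoxifen activates and that the promoter of smooth muscle myosin heavy chain (*Myh11*) drives. Since that Cre transgene lies on the Y chromosome, the series holds males only. Ctrl mice had both floxed genes without Cre. All mice received 1 mg tamoxifen daily in 5 injections, and tissue was taken on day 7 after the first of them, at an age of 5 to 7 weeks. Whole-tissue RNA gave 12 libraries from 9 mice, 3 in each of the 4 groups. Ctrl colon came from mice 788, 786, and 787, Y/T KO colon from mice 759, 783, and 780, Ctrl bladder from mice 784, 785, and 788, and Y/T KO bladder from mice 782, 783, and 780, and values are listed below in that order. The neurons were not a target of the deletion. In RNA of a whole organ, fewer neurons and less RNA per neuron cannot be told apart.

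The colon wall holds a nervous system of its own, with ganglia between the muscle layers and beneath the mucosa that contain both excitatory and inhibitory motor neurons. Excitatory motor neurons release acetylcholine, made by choline acetyltransferase (*Chat*), and tachykinins such as substance P, encoded by *Tac1*. Inhibitory motor neurons release nitric oxide, made by neuronal nitric oxide synthase (*Nos1*), and vasoactive intestinal peptide (*Vip*). The urinary bladder is supplied by parasympathetic and sympathetic neurons of the pelvic ganglia and by sensory fibers, and RNA of a nerve cell is found mainly in its body rather than in its axon. Of the remaining markers, *Elavl4* encodes the RNA-binding protein HuD, *Uchl1* the ubiquitin hydrolase also known as PGP9.5, *Prph* the intermediate filament peripherin of peripheral neurons, *Snap25* a component of the machinery for vesicle release, and *Ret* the receptor through which glial cell line-derived neurotrophic factor acts on enteric neurons.

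The start regions of 4 of these genes are shown, because *Vip* and *Tac1* were the 2 that were higher in colon, *Uchl1* the 1 that was higher in bladder, and *Prph* stands for those without a called tissue difference. Each sequence runs from 250 bases before to 50 bases after a transcription start of RefSeq in GRCm38.p6, 5′ to 3′ on the strand of the gene. Capitals mark the letters TGACG, the half-site of the cAMP response element, read on either strand (CGTCA on the opposite strand), and TATAAA, the core of the TATA box.
Vip, chr10:5638968-5639267, plus strand: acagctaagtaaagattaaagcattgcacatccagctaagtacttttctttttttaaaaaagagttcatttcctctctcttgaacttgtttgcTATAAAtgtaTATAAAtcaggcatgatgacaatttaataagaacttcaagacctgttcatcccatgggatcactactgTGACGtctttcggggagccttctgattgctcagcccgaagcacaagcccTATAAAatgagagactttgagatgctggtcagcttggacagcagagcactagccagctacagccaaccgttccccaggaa
Tac1, chr6:7554811-7555110, plus strand: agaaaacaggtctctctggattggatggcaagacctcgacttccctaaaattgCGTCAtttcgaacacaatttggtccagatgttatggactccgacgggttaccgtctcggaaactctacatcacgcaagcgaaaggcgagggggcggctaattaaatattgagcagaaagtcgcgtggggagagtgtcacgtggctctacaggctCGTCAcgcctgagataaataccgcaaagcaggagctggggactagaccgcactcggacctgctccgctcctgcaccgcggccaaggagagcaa
Prph, chr15:99054924-99055223, plus strand: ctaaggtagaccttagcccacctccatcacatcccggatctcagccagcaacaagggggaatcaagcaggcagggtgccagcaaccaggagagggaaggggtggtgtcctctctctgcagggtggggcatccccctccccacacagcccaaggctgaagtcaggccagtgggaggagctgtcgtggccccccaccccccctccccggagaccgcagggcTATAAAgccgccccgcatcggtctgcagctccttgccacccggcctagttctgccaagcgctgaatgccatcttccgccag
Uchl1, chr5:66675871-66676170, plus strand: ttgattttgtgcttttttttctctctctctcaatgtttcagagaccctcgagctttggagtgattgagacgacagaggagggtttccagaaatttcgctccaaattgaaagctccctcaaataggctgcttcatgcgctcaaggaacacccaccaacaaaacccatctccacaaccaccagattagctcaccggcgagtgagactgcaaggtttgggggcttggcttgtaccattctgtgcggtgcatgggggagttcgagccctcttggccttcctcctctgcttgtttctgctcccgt
The half-site was found once in the window of *Vip*, beginning at base -79 from the start, and at 2 places in that of *Tac1*, at -197 and -43. TATAAA began at -31 in *Prph* and at -157, -147, and -30 in *Vip*. Neither string occurred in the *Uchl1* window. Of the 9 genes, 7 had an entry in this table (*Ret* and *Snap25* had none), and 5 of the 7 (*Chat*, *Nos1*, *Vip*, *Tac1*, and *Elavl4*) held TGACG in at least 1 window. Counted by window, 7 of the 10 entries of these genes did, beside 20.8% of all 32851 windows, but 4 of the 10 entries are of *Elavl4*, and 2 of these overlap and hold the same site. TATAAA was found in 2 of the 10 entries and in 13.6% of all windows. A string match is a description of the sequence and not evidence of a bound factor.

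Expression is given in TPM, the share of a transcript among all transcripts of a library after division by its length, so that levels of different genes can be set side by side. Libraries were of like size, with 2.80 to 3.94 gigabases of aligned sequence and 22800 to 24104 genes above 0 TPM. The urothelial gene *Upk3a* stood between 837 and 1182 TPM in the bladder libraries and between 0 and 1.18 TPM in the colon libraries. Whole-tissue *Yap1* was 41.3 to 47.0 TPM for Y/T KO and 45.8 to 54.9 TPM for Ctrl colon (log2 fold change -0.17, limma adjusted p = 0.697) and 69.4 to 72.1 against 98.6 to 110 TPM in bladder (log2 fold change -0.54, limma adjusted p = 0.0625), and *Wwtr1* was not lower in Y/T KO in either tissue (log2 fold change 0.18 in colon and 0.24 in bladder, limma adjusted p = 0.730 and 0.678). TPM of a whole gene does not separate the floxed exons from the rest of the transcript, so these values do not check the genotype, which is taken from the labels. Fold changes, also called log2 differences, are differences of log2(TPM + 0.1) after scaling between libraries, from a limma fit over all genes at 0.5 TPM or more in 3 or more of the 6 libraries from a tissue. A gene is termed called when its Benjamini-Hochberg adjusted p over all these genes is under 0.05. Of the 9 marker genes 8 were tested, and *Chat* failed the filter in both tissues.

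Among the 6 bladder libraries, 3 stood apart in genes of another organ. The prostate gene *Sbp*, which encodes spermine-binding protein, stood at 36341, 14.3, and 35.3 TPM for Ctrl bladder and at 19.3, 39648, and 27206 TPM for Y/T KO bladder. *Msmb*, which encodes a secreted protein of the prostate, was at 2410.1 TPM for Ctrl mouse 784, 129 TPM for Y/T KO mouse 783, and 795 TPM for Y/T KO mouse 780, and at no more than 0.507 TPM in the other 3 bladder libraries. *Sbp* and *Msmb*, and also *Pbsn* in the plot of prostate genes, were chosen after their values had been seen. The accessory gland list itself, made up of 10 genes of seminal vesicle and related glands, summed to 1242, 2.38, and 0.701 TPM for Ctrl and 2.93, 9183, and 178 TPM for Y/T KO bladder, nearly all of it *Spink1*, while 5 of its genes (*Svs1*, *Svs2*, *Svs3a*, *Svs3b*, and *Pate4*) were at 0 in every bladder library. *Spink1* was also at 2901 to 4199 TPM in the colon libraries, so this sum is not particular to gland tissue. The 10 genes of skeletal muscle summed to 8544 and 9053 TPM for Y/T KO mice 783 and 780 and to between 1271 and 2246 TPM in the other bladder libraries.

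*Vip* was the most abundant of the 9 transcripts in colon. It stood at 105, 82.1, and 104 TPM for Ctrl colon and at 153, 81.2, and 111 TPM for Y/T KO colon. In the bladder it was 34.2, 17.1, and 3.83 TPM for Ctrl and 18.3, 21.1, and 22.2 TPM for Y/T KO. Every colon library was thus above every bladder library, and the median of the colon libraries was 5.32 times that of the bladder libraries. The tissue difference was called (log2 2.92 for colon minus bladder, SE 0.45, limma adjusted p = 0.000215), and it was 3.36 without the 3 bladder libraries rich in *Sbp* (limma adjusted p = 0.000423). The transcript of its receptor *Vipr1* was also higher in colon, at 112 to 138 TPM against 4.0 to 7.64 TPM (log2 4.68, SE 0.16, limma adjusted p = 3.41e-10), as was the smooth muscle receptor *Vipr2* (log2 1.92, SE 0.18, limma adjusted p = 2.45e-06).

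*Tac1* was second to *Vip* in colon, with 48.3, 37.1, and 42.6 TPM for Ctrl and 82.2, 46.5, and 82.2 TPM for Y/T KO. In bladder the values were 23.5, 0, and 0.077 TPM for Ctrl and 0.114, 15.8, and 4.76 TPM for Y/T KO. The bladder values fall into 3 libraries with the transcript (mice 784, 783, and 780) and 3 with almost none, and the former are the same 3 that held *Sbp* and *Msmb*. *Snap25*, by contrast, was 31.5, 17.4, and 14.9 TPM in those 3 and 16.2, 2.25, and 13.2 TPM in the other 3. What part prostate tissue had in bladder *Tac1* was not tested. The tissue difference was called (log2 5.5, SE 1.42, limma adjusted p = 0.00675) and was 8.48 without the 3 libraries (SE 0.27, limma adjusted p = 4.83e-08). With the Y/T KO libraries alone it was not called (log2 4.99, limma adjusted p = 0.0505). Against a bladder group near 0 the size of these values depends on the 0.1 TPM added before taking logarithms. *Tac1* is also a product of enterochromaffin cells of the gut epithelium. The list of 10 enteroendocrine genes, not limited to those cells, summed to 321 to 455 TPM for Ctrl colon and 393 to 544 TPM for Y/T KO colon. In bladder it summed to 17.1 to 38.0 TPM. Of these genes 8 were called higher in colon, among them *Pyy* and *Gcg*, which were at 0 in all 6 bladder libraries. The other 2, *Cck* and *Nts*, were called higher in bladder (log2 -3.88 and -2.38). The shares over all tested genes were 31.8% and 31.7%. What part enterochromaffin cells had in colon *Tac1* was not tested.

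**Figure D1:**
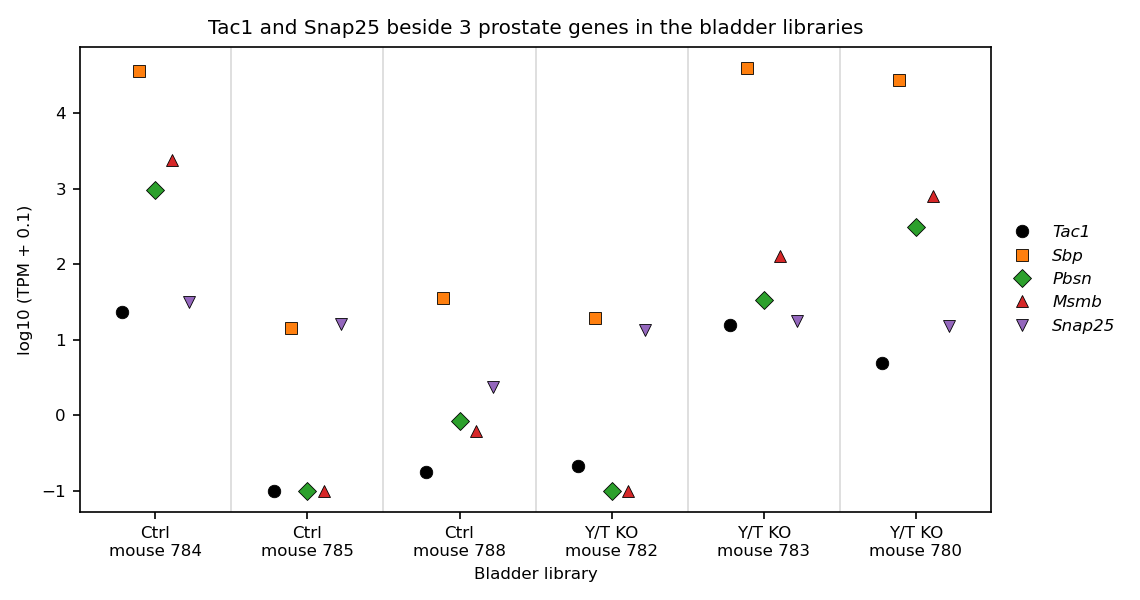
Log10 of TPM plus 0.1 (vertical axis) of *Tac1*, *Snap25*, and the prostate genes *Sbp*, *Pbsn*, and *Msmb* in each of the 6 bladder libraries (horizontal axis, 1 symbol per gene). *Tac1* was 23.5, 15.8, and 4.76 TPM in the 3 libraries with *Sbp* above 1000 TPM and at most 0.114 TPM in the other 3.

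*Uchl1* had the opposite tissue pattern to these peptides. It was 31.8, 22.0, and 24.3 TPM for Ctrl colon and 27.9, 22.3, and 20.6 TPM for Y/T KO colon. In bladder it reached 389, 376, and 333 TPM for Ctrl and 546, 504, and 428 TPM for Y/T KO. The colon was thus lower by 3.84 on the log2 scale (SE 0.13, 95% interval -4.11 to -3.56, limma adjusted p = 3.12e-10). It was the most abundant of the 9 transcripts in the bladder, above *Prph*, the next in order, in every library. Reads of *Uchl1* were dense, up to 549 per base, and its antisense neighbor *Uchl1os* was listed at 0 in 11 libraries and at 0.097 TPM in the other. Another gene used to mark neurons, *Rbfox3*, which encodes the nuclear antigen NeuN, behaved similarly between tissues. It stood at 0.141 to 0.262 TPM in colon and at 67.2, 67.7, and 83.0 TPM for Ctrl and 94.1, 44.9, and 46.8 TPM for Y/T KO bladder (log2 -7.57, SE 0.18, limma adjusted p = 1.56e-11).

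The tissue difference of the other 5 tested markers was not called, and their libraries overlapped between tissues. *Prph* was 13.3, 8.77, and 14.2 TPM for Ctrl colon, 12.7, 12.2, and 10.4 TPM for Y/T KO colon, 50.9, 23.8, and 5.53 TPM for Ctrl bladder, and 25.6, 21, and 18.5 TPM for Y/T KO bladder. *Snap25* was 13.8, 13.9, and 12.2 TPM for Ctrl colon and 10.0, 8.39, and 6.26 TPM for Y/T KO colon, beside the bladder values given above. *Ret* was 3.05, 3.64, and 2.85 TPM for Ctrl colon and 2.55, 2.99, and 1.54 TPM for Y/T KO colon. In the bladder *Ret* was 14.6, 8.11, and 1.26 TPM for Ctrl and 7.87, 9.27, and 7.47 TPM for Y/T KO, so that 5 of the 6 bladder libraries were above every colon library and the remaining 1 was below all of them. *Nos1* was 2.46, 3.40, and 1.99 TPM for Ctrl colon and 2.02, 1.56, and 1.06 TPM for Y/T KO colon, and 5.77, 4.15, and 0.629 TPM for Ctrl bladder and 2.36, 3.86, and 4.85 TPM for Y/T KO bladder. The tissue difference was -1.01 on the log2 scale for *Ret* (SE 0.48, limma adjusted p = 0.0866), 0.73 for *Elavl4* (SE 0.38, limma adjusted p = 0.118), -0.51 for *Prph* (SE 0.45, limma adjusted p = 0.342), -0.33 for *Nos1* (SE 0.46, limma adjusted p = 0.547), and -0.02 for *Snap25* (SE 0.52, limma adjusted p = 0.977). The 95% interval of *Snap25*, -1.18 to 1.14, still holds a difference of more than 2-fold in either direction. Of the 8 tested markers, 2 were called higher in colon and 1 higher in bladder, beside 31.8% and 31.7% of the 19439 genes tested.

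*Elavl4* and *Chat* were the least abundant. *Elavl4* was 1.98, 2.47, and 1.78 TPM for Ctrl colon and 1.60, 0.843, and 0.859 TPM for Y/T KO colon. Its bladder values were 2.45, 1.38, and 0.331 TPM for Ctrl and 0.821, 1.14, and 1.01 TPM for Y/T KO. Between 0.107 and 0.801 reads covered an average base of the gene, so that single values of *Elavl4* are imprecise. *Chat* was 0.235, 0.278, and 0.324 TPM for Ctrl colon and 0.299, 0, and 0.077 TPM for Y/T KO colon, and 1.1, 0.456, and 0 TPM for Ctrl bladder and 0.280, 0.315, and 0.206 TPM for Y/T KO bladder. At a coverage of at most 0.602 reads per base a difference in *Chat* was not detectable. *Slc18a3*, shown because of its place and chosen after its values had been seen, encodes the vesicular acetylcholine transporter. It lies within the *Chat* gene on the same strand (chromosome 14, 32462438 to 32464850, GRCm38) and was 0.480 to 0.978 TPM in colon and 0.217 to 2.46 TPM in bladder.

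**Figure D2:**
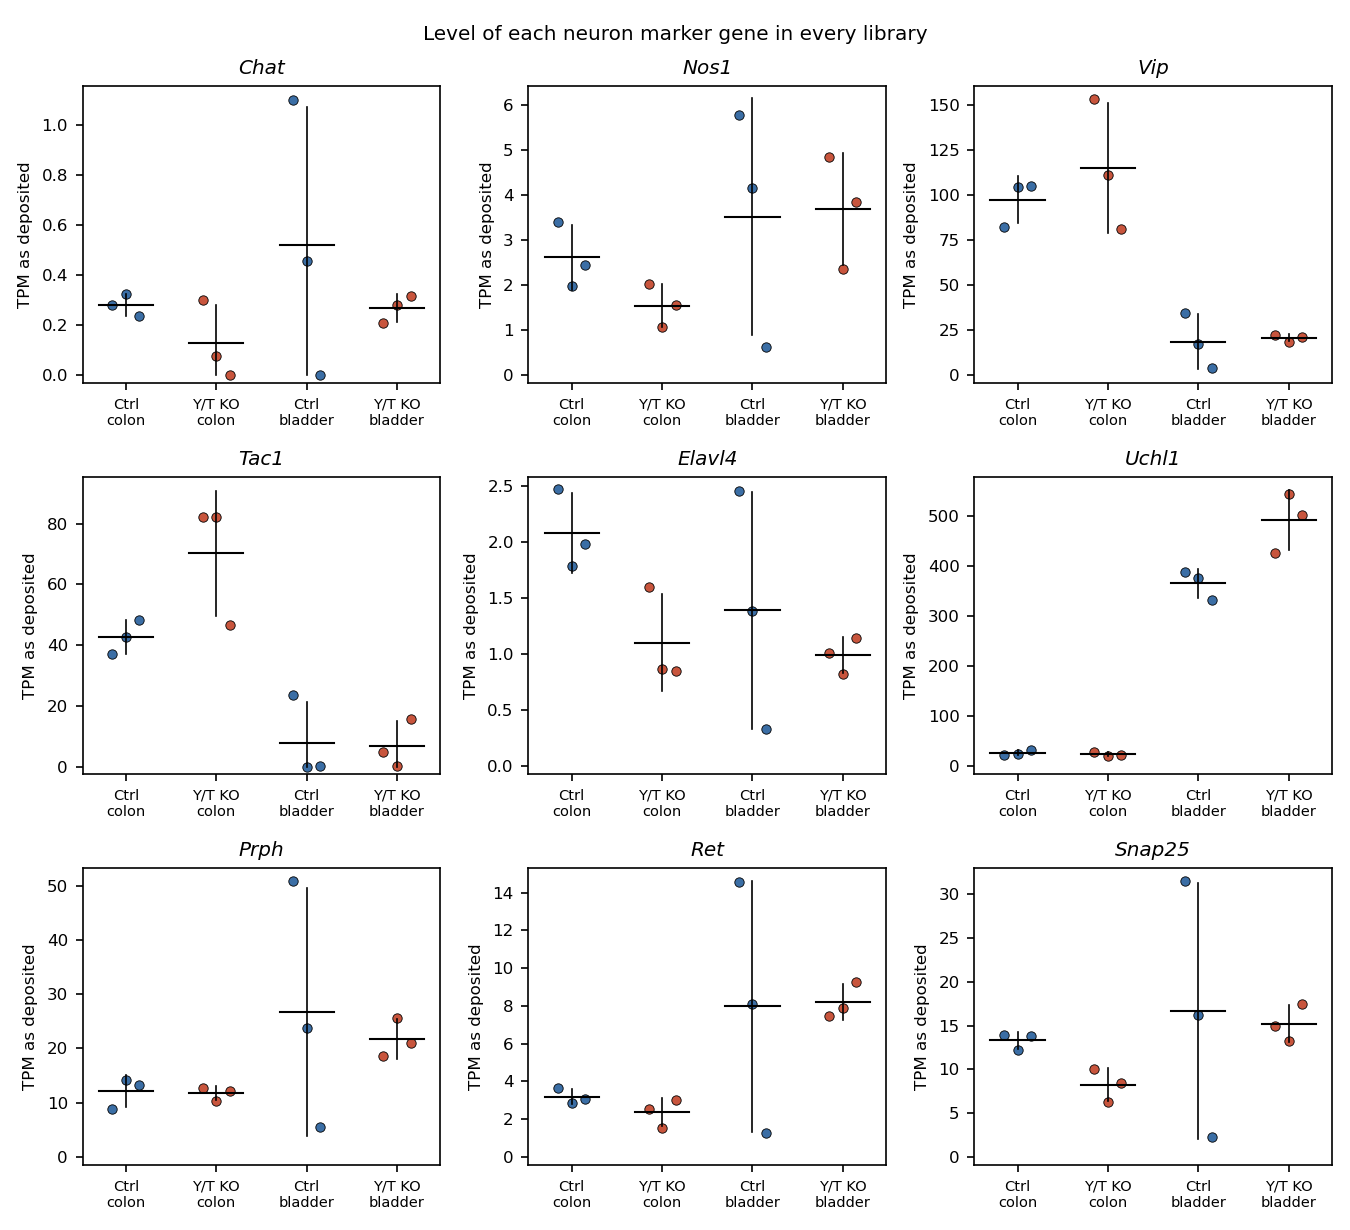
TPM as deposited (vertical axis, a separate scale from 0 for each gene) of the 9 marker genes in the 4 groups. Each point is 1 library, the horizontal bar is the group mean, and the vertical line is the mean ± SD of 3 libraries, cut at 0. *Vip* and *Tac1* were higher in colon and *Uchl1* in bladder, and for most genes the points of Ctrl bladder lie farthest from each other.

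The order of levels within a group was not the same in both tissues. In Ctrl colon it ran *Vip*, *Tac1*, *Uchl1*, *Snap25*, *Prph*, *Ret*, *Nos1*, *Elavl4*, *Chat*, and libraries of neighboring genes overlapped for *Snap25* and *Prph*, for *Ret* and *Nos1*, and for *Nos1* and *Elavl4*. Y/T KO colon had the same order with *Prph* before *Snap25*, and there these genes did not overlap. The overlaps in that group were *Vip* with *Tac1*, *Ret* with *Nos1*, and *Nos1* with *Elavl4*. In Ctrl bladder *Uchl1* came first and stood clear of *Prph*, and all further neighbors overlapped, whereas in Y/T KO bladder *Uchl1*, *Prph* and *Vip*, *Snap25*, *Ret* with *Tac1* and *Nos1*, *Elavl4*, and *Chat* followed each other.

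The bladder libraries of 2 Ctrl mice lay at the ends of most of these ranges. The library of mouse 788 was the lowest of the 6 bladder libraries for 7 of the 8 tested markers (the exception was *Tac1*, listed at 0 in mouse 785), and that of mouse 784 the highest for 7 of 8 (the exception was *Uchl1*). Over all 18237 genes tested in bladder, mouse 788 was lowest for 11.9% and mouse 784 highest for 9.83%. *Snap25* spanned 14.0-fold from the lowest to the highest bladder library, *Ret* 11.6-fold, *Prph* 9.21-fold, *Nos1* 9.18-fold, *Vip* 8.93-fold, and *Elavl4* 7.42-fold, while *Uchl1* spanned 1.64-fold. In colon the widest span of the 8 was 3.20-fold, for *Nos1*. Without the bladder library of mouse 788 the tissue differences of *Ret* (log2 -1.53, limma adjusted p = 0.000124), *Prph* (-0.96, limma adjusted p = 0.00370), *Nos1* (-0.81, limma adjusted p = 0.0172), and *Snap25* (-0.58, limma adjusted p = 0.0259) were called, which brought the number of called markers from 3 to 7. Without mouse 784 that of *Elavl4* was called (log2 1.01, limma adjusted p = 0.0217). The same mouse 788 gave a colon library in which none of the 8 markers was the lowest.

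**Figure D3:**
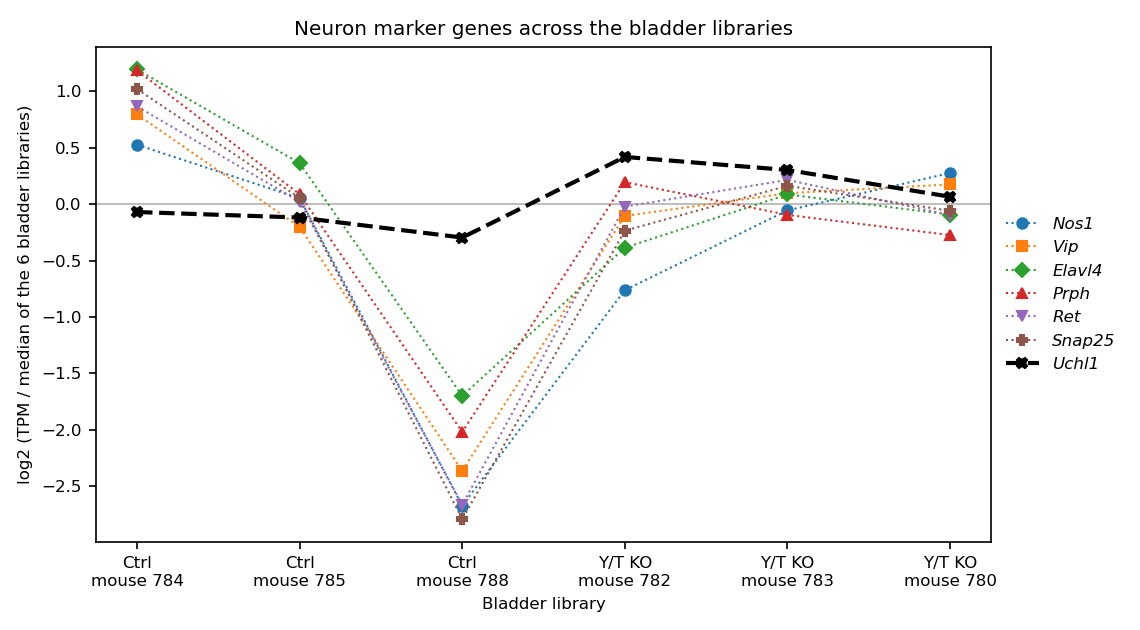
Log2 of TPM over the median of the 6 bladder libraries (vertical axis) for 7 marker genes in each bladder library (horizontal axis). Dotted and dashed lines only join the points of a gene. The 6 genes other than *Uchl1* were highest in Ctrl mouse 784 and lowest in Ctrl mouse 788, and *Uchl1* (dashed, black) spanned 1.64-fold.

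The same libraries were at the ends for many genes of the other neuronal lists. *Tubb3*, *Nefl*, and *Dbh* below were chosen after their values had been seen. On the pan-neuronal list, mouse 788 was lowest for 22 and mouse 784 highest for 22 of the 33 genes tested in bladder. *Tubb3*, a tubulin of neurons, was 41.0, 17.5, and 3.52 TPM for Ctrl and 16.6, 16.6, and 14.2 TPM for Y/T KO bladder, and the neurofilament gene *Nefl* 15.3, 6.29, and 0.783 TPM for Ctrl and 5.99, 6.92, and 6.74 TPM for Y/T KO. On the sympathetic list, 6 of 9 genes were lowest in mouse 788 and 6 of 9 highest in mouse 784. Tyrosine hydroxylase (*Th*), the rate-limiting enzyme of catecholamine synthesis, was 10.8, 3.50, and 0.197 TPM for Ctrl and 2.96, 5.33, and 3.25 TPM for Y/T KO bladder, and dopamine beta-hydroxylase (*Dbh*) 18.7, 7.75, and 0.312 TPM for Ctrl and 4.23, 7.79, and 5.58 TPM for Y/T KO. On the cholinergic list mouse 788 was lowest for 5 and mouse 784 highest for 6 of 8 genes, on the peptide list for 8 and 6 of 12, and on the glial list for 5 and 5 of 12. On the list of neuron specification and GDNF signaling 4 of 15 genes were lowest in mouse 788 and 6 in mouse 785, and 7 were highest in mouse 784.

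Lists of other cell types were set beside this pattern. Of the 10 adipocyte genes 9 were lowest in mouse 788, and their sum was 5369, 3524, and 2609 TPM for Ctrl and 4282, 7556, and 5590 TPM for Y/T KO bladder. *Adipoq*, which encodes the adipocyte hormone adiponectin, was 212, 94.8, and 46.9 TPM for Ctrl and 154, 276, and 203 TPM for Y/T KO. Of the 10 skeletal muscle genes 5 were lowest in mouse 788, and of 5 enteroendocrine genes 3 were lowest in mouse 788 and 3 highest in mouse 784. None of the 10 smooth muscle genes and none of the 10 urothelial genes was lowest in mouse 788, and the urothelial sum was 6485, 7212, and 7147 TPM for Ctrl and 6821, 5671, and 5377 TPM for Y/T KO bladder. How far the amount of tissue around the bladder wall in each library bears on the neuronal transcripts was not tested.

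**Figure D4:**
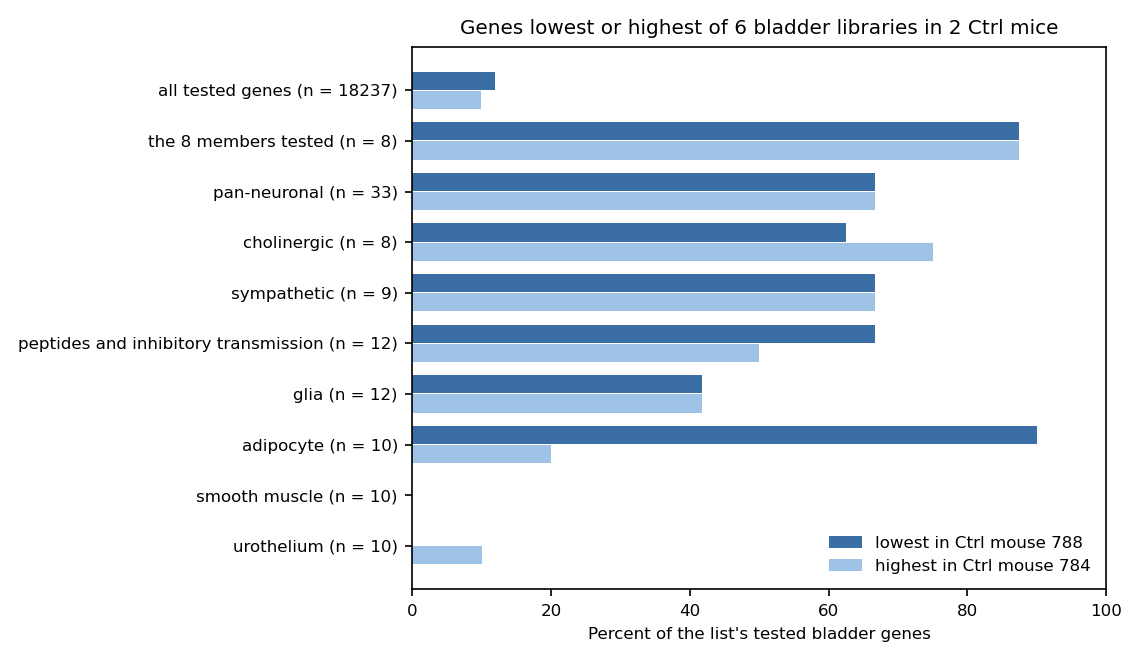
Percent of the bladder genes tested in each list (horizontal axis) that were lowest of the 6 bladder libraries in Ctrl mouse 788 (dark bars) or highest in Ctrl mouse 784 (light bars). The 8 tested marker genes stand at 87.5% for both, all 18237 genes at 11.9% and 9.83%, and smooth muscle genes at 0% for both.

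Some non-member genes had almost the same profile over the libraries. The measure was Pearson's r between a gene and the mean of the 8 tested markers, on log2 values centered on each group mean, over 12 libraries and 14810 genes with a mean of at least 1 TPM in each tissue. Among the 5 highest were *Slc18a2*, the vesicular monoamine transporter (r = 0.974, Spearman's rho 0.867), *Pirt*, a membrane protein of sensory neurons (r = 0.973, rho 0.846), *Scg2*, a granin of secretory vesicles (r = 0.969, rho 0.881), and *Napb*, a factor of vesicle fusion (r = 0.969, rho 0.944). The 2 libraries farthest from the median of the marker profile were the bladder libraries of mice 784 and 788, and without them r was 0.806, 0.842, 0.747, and 0.729 in the same order. *Slc18a2* was 5.26, 1.57, and 0.224 TPM for Ctrl and 1.365, 2.465, and 1.59 TPM for Y/T KO bladder, and 1.14, 1.33, and 1.06 TPM for Ctrl and 1.41, 0.623, and 0.590 TPM for Y/T KO colon. All these values share the libraries, so they describe likeness and carry no test.

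Among the members, r over the 6 bladder libraries was 0.997 for *Ret* and *Snap25* (Spearman's rho 0.943), 0.99 for *Vip* and *Snap25* (rho 0.714), and 0.967 for *Prph* and *Ret* (rho 0.771), values in which mice 784 and 788 lie at the ends. For *Uchl1* with the other markers it ran from 0.292 (*Elavl4*, rho -0.0286) to 0.606 (*Ret*, rho 0.257). In colon the markers did not move as 1 group. There r was 0.919 for *Nos1* and *Snap25* (rho 0.829) and 0.818 for *Vip* and *Tac1* (rho 0.771), but -0.69 for *Nos1* and *Tac1* (rho -0.714) and -0.812 for *Ret* and *Tac1* (rho -0.771). Both genotypes are among these 6 libraries, so the values describe them together.

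Knockout and control colon were compared next. No marker was called, as 24 of 17500 genes were (0.137%), and 3 of the 8 tested markers had an unadjusted p under 0.05, beside 1702 of 17500 genes. *Snap25* was lower in every Y/T KO library than in every Ctrl library (log2 difference -0.68, SE 0.21, 95% interval -1.15 to -0.20, limma adjusted p = 0.412). So was *Elavl4* (log2 difference -0.87, SE 0.33, limma adjusted p = 0.485). Such a lack of overlap was found downward in 8.28% and upward in 7.52% of all tested colon genes, and in 2 of the 8 markers downward and none upward. *Nos1* had a log2 difference of -0.70 (SE 0.31, limma adjusted p = 0.530) and *Ret* one of -0.42 (SE 0.29, limma adjusted p = 0.658). The fold change of *Tac1* was positive, 0.72 (SE 0.26, 95% interval 0.11 to 1.32, limma adjusted p = 0.465), with 2 of the 3 Y/T KO libraries at 82.2 TPM and the other, at 46.5 TPM, within the Ctrl range. *Vip* (0.24, SE 0.26, limma adjusted p = 0.773), *Prph* (0.02, SE 0.25, limma adjusted p = 0.987), and *Uchl1* (-0.10, SE 0.21, limma adjusted p = 0.897) differed by less than the spread between mice, and the sign for *Prph* turned under other settings. Y/T KO mouse 780 gave the lowest colon library for 4 of the 8 markers (*Nos1*, *Uchl1*, *Ret*, and *Snap25*), 18 of 33 pan-neuronal genes, and 6 of 8 cholinergic genes, beside 23.6% of all tested colon genes. Without it the log2 fold change was -0.48 for *Nos1*, -0.50 for *Snap25*, and -0.16 for *Ret*, and that of *Elavl4* was -0.75, none of them called. Markers of other cells are given beside these values. All 9 tested adipocyte genes had colon fold changes below 0 with none called, while their sum over 10 genes, 469, 459, and 181 TPM for Ctrl and 188, 195, and 208 TPM for Y/T KO, overlapped between genotypes, and 7 of 8 tested pancreatic acinar genes were below 0 with an unadjusted p under 0.05 and none called (median -5.16). Their part in the neuronal values was not tested.

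The ratios of *Chat*, *Nos1*, *Vip*, *Tac1*, and *Ret* to the mean of *Elavl4*, *Uchl1*, *Prph*, and *Snap25* were also described for each library, as log2 differences and with no test. For *Tac1* it was 2.20, 2.02, and 2.18 in Ctrl colon and 3.22, 2.77, and 3.78 in Y/T KO colon, and for *Vip* 3.32, 3.17, and 3.47 in Ctrl and 4.11, 3.57, and 4.21 in Y/T KO. For *Nos1* the ratio over the 6 colon libraries ran from -2.38 to -1.39 and for *Ret* from -1.88 to -1.15. In colon the genotypes did not overlap in 2 of the 5 ratios, *Tac1* and *Vip*, both higher in Y/T KO, with or without *Uchl1* in the mean. The mean holds *Snap25* and *Elavl4*, the 2 markers that were lower in every Y/T KO colon library. In bladder, with *Uchl1* left out of the mean, the ratio of *Vip* was 1.10, 1.05, and 1.13 in Ctrl and 1.43, 1.46, and 1.72 in Y/T KO, and that of *Ret* was -0.13, -0.02, and -0.40 in Ctrl and 0.22, 0.28, and 0.16 in Y/T KO. There 3 of the 5 ratios did not overlap, *Vip* and *Ret* being higher and *Chat* lower in Y/T KO, whereas with *Uchl1* in the mean all 5 overlapped. *Chat* failed the filter on low values and was at 0 TPM for Ctrl bladder of mouse 788. Its ratio therefore depends on the 0.1 TPM added before taking logarithms and does not show a difference. The share of such ratios over all genes was not computed, so these counts have no background beside them.

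In bladder, too, no marker was called between genotypes, as 55 of 18237 genes were (0.302%). Of the 8 markers 1 had an unadjusted p under 0.05, beside 2707 of 18237 genes. This was *Uchl1*, for which every Y/T KO library was above every Ctrl library (log2 difference 0.42, SE 0.12, 95% interval 0.12 to 0.72, limma adjusted p = 0.218). A lack of overlap was found upward in 10.4% and downward in 10.0% of the bladder genes. The fold changes of the others had wide intervals. That of *Snap25* was 0.51 (95% interval -1.84 to 2.86, limma adjusted p = 0.838), that of *Vip* 0.64 (-1.29 to 2.56, limma adjusted p = 0.743), and that of *Ret* 0.59 (-1.52 to 2.71, limma adjusted p = 0.786). The log2 fold change was 0.47 for *Nos1*, 0.19 for *Prph*, -0.12 for *Elavl4*, and 1.77 for *Tac1*, with standard errors of 0.82, 0.80, 0.68, and 2.60 (limma adjusted p of 0.824, 0.934, 0.948, and 0.788). Without Ctrl mouse 788 the sign turned for *Nos1*, *Vip*, *Prph*, *Ret*, and *Snap25*, to between -0.72 and -0.26. The value of *Tac1* was 0.31 without Ctrl mouse 785, 0.71 without Ctrl mouse 788, and 3.57 without Y/T KO mouse 782, with none called. Without the 3 libraries rich in *Sbp*, with 1 Y/T KO library left whose spread had to be taken from the other groups, *Uchl1* was at 0.60 (SE 0.29, limma adjusted p = 0.945) and *Tac1* at 0.62 (SE 0.45). In the same fit *Prph* was at 1.12, *Ret* at 1.22, *Snap25* at 1.08, *Vip* at 1.13, *Nos1* at 0.45, and *Elavl4* at 0.17, and no marker was called.

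The knockout difference in colon minus that in bladder was negative for all 8 markers, and none was called, beside 9 of 16298 genes (0.0552%). The median over all tested genes was -0.02, and the share of genes with a negative value was not computed. The 8 values share the same libraries. The lowest unadjusted p was that of *Uchl1* (log2 -0.55, SE 0.25, limma adjusted p = 0.403). A difference of genotype effect between the tissues was thus not detectable for any marker, and the intervals, for instance -3.56 to 1.15 for *Snap25*, do not exclude large ones. For *Tac1*, *Vip*, and *Prph* the sign turned when mouse 788 was left out of the bladder libraries. With 1 library left out, the highest values of the remaining markers were -0.017 for *Ret*, -0.033 for *Elavl4*, -0.097 for *Snap25*, -0.24 for *Nos1*, and -0.38 for *Uchl1*.

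**Figure D5:**
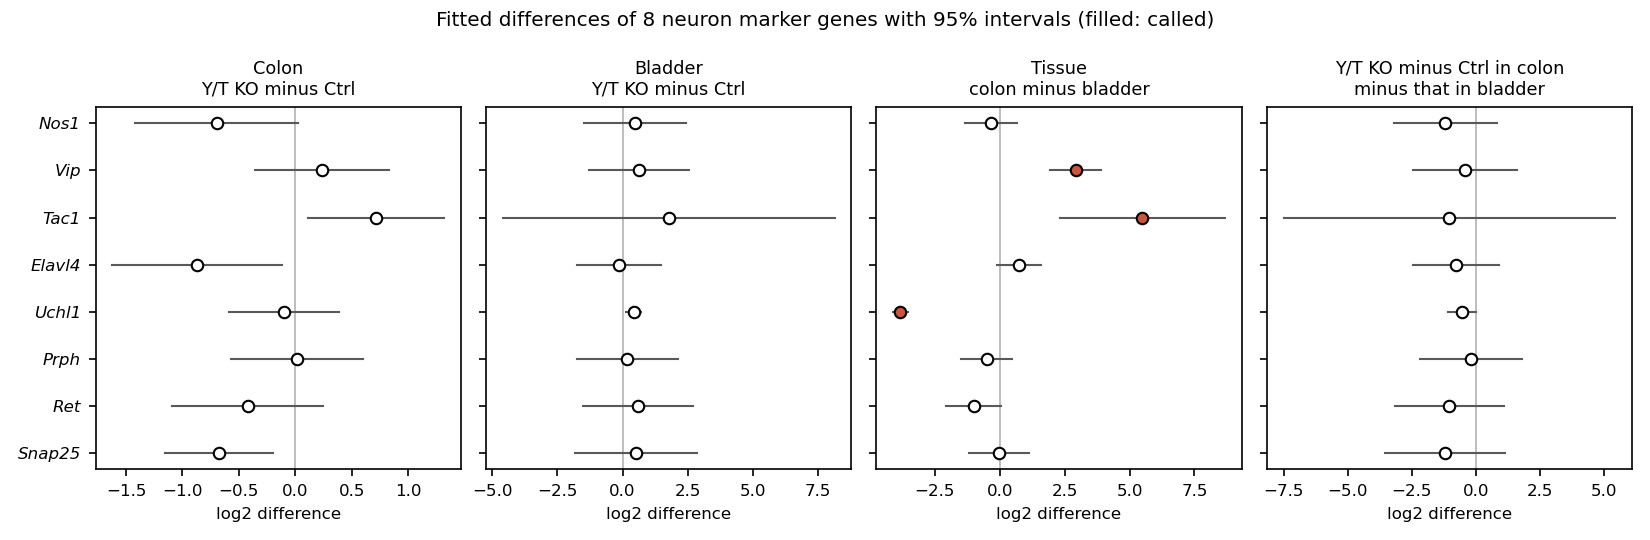
Fitted log2 differences (horizontal axes, a separate scale for each panel) of the 8 tested markers (rows) for Y/T KO minus Ctrl in colon and in bladder, colon minus bladder, and the colon knockout difference minus the bladder one. Circles are estimates, lines 95% intervals, and filled circles are called genes, which were *Vip*, *Tac1*, and *Uchl1* in the tissue comparison.

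The wider neuronal lists were counted in the same fits. Of 33 pan-neuronal genes tested in colon none was called between genotypes, and 24 had a fold change below 0 and 9 above (median -0.25, beside 0.01 for all tested genes), with an unadjusted p under 0.05 in 2. The 8 cholinergic genes tested in colon all had fold changes below 0, from -0.61 (*Chrna3*, limma adjusted p = 0.608) to -0.06 (*Chrnb2*, limma adjusted p = 0.964), the ends of the range being named after they had been seen, and none was called or had an unadjusted p under 0.05. Of 17 peptide and inhibitory transmission genes 7 had fold changes below 0, 1 of them with an unadjusted p under 0.05. The other 10 had fold changes above 0 and 4 of them an unadjusted p under 0.05, again with none called. Among these, *Penk*, the precursor of enkephalins, was 32.8, 27.3, and 27.2 TPM for Ctrl and 52.3, 48.0, and 57.0 TPM for Y/T KO colon (log2 difference 0.88, SE 0.16, limma adjusted p = 0.140), and *Cartpt*, a peptide of myenteric neurons, 1.73, 1.71, and 1.48 TPM for Ctrl and 6.60, 2.96, and 2.45 TPM for Y/T KO (log2 difference 1.14, SE 0.37, limma adjusted p = 0.442). Both were chosen after their values had been seen. In bladder none of the 33 pan-neuronal, 8 cholinergic, 12 peptide, and 9 sympathetic genes was called between genotypes. An unadjusted p under 0.05 was found in 1, 0, 2, and 0 of them, beside 2707 of 18237 genes. The pan-neuronal one was *Sv2b* (log2 difference 1.21, SE 0.25, limma adjusted p = 0.141). In colon none of 7 sympathetic genes and none of 16 genes of neuron specification and GDNF signaling was called (1 and 3 at an unadjusted p under 0.05), nor was any of 15 genes of neuron specification tested in bladder (1 at an unadjusted p under 0.05).

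Between tissues, 12 of 35 pan-neuronal genes were called higher in bladder and 3 higher in colon. Beside each such count stand the shares over all 19439 genes tested, 31.7% called higher in bladder and 31.8% higher in colon. The former were led by *Rbfox3*, *Dpysl3*, which encodes a protein of axon growth (log2 -1.49, SE 0.09, limma adjusted p = 8.59e-08), and *Sv2b*, a protein of synaptic vesicles (-3.51, SE 0.23, limma adjusted p = 1.20e-07), and the latter were *L1cam*, *Ina*, and *Scg2* (log2 0.57, 1.61, and 2.16). *Rbfox3*, *Dpysl3*, and *Sv2b* did not follow *Snap25* across the bladder libraries. For Ctrl bladder of mouse 788, where *Snap25* was 2.25 TPM, *Rbfox3* was 83.0 and *Sv2b* 7.85 TPM. For Ctrl mouse 784, with *Snap25* at 31.5 TPM, they were 67.2 and 6.38 TPM. *Dpysl3* was 98.0 to 129 TPM in bladder. Of 8 cholinergic genes *Ache*, acetylcholinesterase, was called higher in colon (log2 1.38, SE 0.37, limma adjusted p = 0.00631), and *Bche* and *Prima1* higher in bladder (-1.13 and -1.98). Of 18 peptide and inhibitory transmission genes 9 were called higher in colon and 3 higher in bladder. *Sst*, somatostatin, stood at 11.9 to 33.1 TPM in colon and was listed at 0 in all bladder libraries, as were *Scgn* and *Nmu*, whereas *Npy*, a cotransmitter of sympathetic neurons, was 3.06 to 7.63 TPM in colon and 7.29 to 93.5 TPM in bladder (log2 -2.35, SE 0.53, limma adjusted p = 0.00293). On the sympathetic list *Th* (log2 -3.82, SE 0.76, limma adjusted p = 0.00106), the noradrenaline transporter *Slc6a2* (-3.81), and the receptor *Npy1r* (-1.63) were among 4 genes called higher in bladder, and 3 were called higher in colon, *Maoa*, *Ddc*, and *Slc18a1*, of which *Ddc* also serves serotonin synthesis in enterochromaffin cells. Of 17 genes of neuron specification and GDNF signaling 13 were called higher in bladder, led by *Gata3*, *Gata2*, and *Tbx3*, of which *Gata3* is also on the urothelial list, and 2 higher in colon, among them *Gdnf* (log2 2.40).

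Genes that receive the signals of these neurons and the supporting glia were counted as well. Of 12 receptor and effector genes tested in colon none was called between genotypes, 3 had an unadjusted p under 0.05, and 10 had fold changes below 0. The muscarinic receptors *Chrm2* and *Chrm3* of smooth muscle, named after their values had been seen, had log2 differences of -2.28 (SE 0.34, limma adjusted p = 0.0850) and -1.48 (SE 0.40, limma adjusted p = 0.358) in colon. In bladder these were -1.64 (SE 0.48, limma adjusted p = 0.216) and -1.39 (SE 0.22, limma adjusted p = 0.0838). With DESeq2 the study reported *Chrm2* as reduced in both tissues and *Chrm3* in bladder, the colon change of *Chrm3* falling short of significance. It also reported both as lower in colon by quantitative PCR and Western blot. Calls of the fits on TPM are not those of its test. The tachykinin receptor *Tacr2*, which binds the products of *Tac1* and was also chosen after its values had been seen, was 3.65, 5.15, and 4.33 TPM for Ctrl and 2.61, 3.14, and 1.81 TPM for Y/T KO colon (log2 difference -0.76, SE 0.26, limma adjusted p = 0.461). Another tachykinin receptor of the list, *Tacr1*, named after its values had been seen, went the other way. It was 1.17, 2.24, and 1.79 TPM for Ctrl and 2.42, 2.26, and 2.98 TPM for Y/T KO colon (log2 difference 0.61, SE 0.29, limma adjusted p = 0.562). Of 14 such genes tested in bladder none was called between genotypes, and 2 had an unadjusted p under 0.05. Between tissues 7 of 14 were called higher in bladder, led by the purinergic receptor *P2rx1* (464 to 946 TPM against 1.97 to 3.35 TPM, log2 -7.72, SE 0.17, limma adjusted p = 9.72e-12), and 4 higher in colon. The shares over all tested genes were 31.7% and 31.8%. The smooth muscle list, 10 genes, summed to 7819 to 8476 TPM for Ctrl and 5077 to 5976 TPM for Y/T KO colon, and all 10 had fold changes below 0 in each tissue with none called (7 in colon and 5 in bladder at an unadjusted p under 0.05). On the glial list 1 of 11 genes was called between genotypes in colon, beside 0.137% of all tested genes. This was *Mal*, a membrane protein of myelin and of epithelia, at 18.2, 16.9, and 19.5 TPM for Ctrl and 5.12, 5.13, and 3.49 TPM for Y/T KO (log2 difference -1.95, SE 0.22, limma adjusted p = 0.0329). Of the 11 genes 5 had fold changes above 0 and 6 below. *Gfap* and *S100b*, named after their values had been seen, were above 0 with an unadjusted p under 0.05 (log2 difference 0.87 and 0.62, limma adjusted p = 0.41 and 0.51). The knockout difference of *Mal* in colon minus that in bladder was called too (-1.89, SE 0.25, limma adjusted p = 0.0239), as was that of 0.0552% of all tested genes.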

How the data were processed

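Per the labels and the study's methods, whole colon and bladder RNA was made into stranded libraries of polyadenylated RNA, aligned to GRCm38 with HISAT2 and quantified with StringTie (the submitters' processing notes also name bcl2fastq, FastQC, and DESeq2, whose versions are not given in the sources used here). The deposited TPM, FPKM, and coverage values were made by the authors. TPM is a share of all transcripts after division by length, FPKM is scaled to mapped fragments, and coverage is the mean number of reads per base. No counts were used here. TPM was summed over rows of a gene ID (54532 genes) and scaled with size factors from the median of ratios. Fits took genes that reached 0.5 TPM in 3 or more of the 6 libraries of a tissue, as log2(TPM + 0.1), with limma 3.58.1 (trend and robust options) in R 4.3.3, within each tissue for genotype (17500 and 18237 genes) and over 12 libraries for tissue (19439 genes passing in either tissue) and for the difference of genotype effects (16298 passing in both). All tests are two-sided. An exact permutation test of 3 against 3 mice cannot go below p = 0.1 and was not used. For single libraries the unscaled deposited TPM is printed.

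The 9 genes and the gene lists were chosen with earlier results of these data known. All 9 genes are described, and from each list the called genes, at most 3 in each direction by smallest p. Genes from the 5 most like the markers and markers of other cell types that move with a result are named too, and any further gene is said to have been chosen after its values were seen. GRCm38 positions of the genes are, on the plus strand, *Nos1* (ENSMUSG00000029361) chromosome 5, 117781032 to 117958840, *Vip* (ENSMUSG00000019772) chromosome 10, 5639218 to 5647617, *Tac1* (ENSMUSG00000061762) chromosome 6, 7554879 to 7565834, *Uchl1* (ENSMUSG00000029223) chromosome 5, 66676091 to 66687234, *Prph* (ENSMUSG00000023484) chromosome 15, 99055174 to 99058978, and *Snap25* (ENSMUSG00000027273) chromosome 2, 136713453 to 136782428, and on the minus strand *Chat* (ENSMUSG00000021919) chromosome 14, 32408203 to 32465989, *Elavl4* (ENSMUSG00000028546) chromosome 4, 110203722 to 110351909, and *Ret* (ENSMUSG00000030110) chromosome 6, 118151745 to 118197718. Start regions are from RefSeq. Results for some genes that this rule would name are not reported here.

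Mice 788, 783, and 780 gave a library of each tissue, so the mouse number pairs those libraries. Deviations of such a pair from its group means had r of -0.016, 0.089, and 0.059 over genes, and the mouse was used as a replicate block (limma's duplicateCorrelation) in an alternative. The other alternatives were pseudocounts of 0.5 and 1 TPM, no filter, a mean of at least 1 TPM, unscaled TPM and FPKM, no trend and robust options, a single fit of 12 libraries, each genotype alone for the tissue difference, each library left out, and, added after the values were seen, the 3 bladder libraries with *Sbp* above 1000 TPM left out. The fits were tested on simulated data. Figures were drawn with matplotlib.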

Additional observations from a re-analysis of the deposited data

How the results depend on the processing

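Of 578 member values under an alternative setting, 538 kept their direction and their side of the threshold, 30 turned direction, 9 became called, and 1 lost its call (*Tac1* in the tissue comparison, as given above). The causes were not tested. No member was called between genotypes, or in the difference of genotype effects, under any alternative, including those that left out 1 library. With the mouse as a replicate block the tissue comparison called 12437 genes and the same 3 members, the difference of genotype effects called 10 genes and 0 members, and no call on a member changed.

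Genes called between genotypes in colon numbered 6 without the filter, 75 in a single fit of 12 libraries, and 5 to 63 with 1 library left out (63 without Y/T KO mouse 759), against 24. In bladder they numbered 11 to 51 with 1 library left out and 19 without the 3 libraries rich in *Sbp*, against 55. For the difference of genotype effects they numbered 6 to 28 with 1 library left out, against 9. Members called between tissues numbered 5 in Y/T KO libraries alone, where *Prph* (-0.60), *Ret* (-1.53), and *Snap25* (-0.62) were called and *Tac1* was not, and 3 to 7 with 1 library left out, 7 being reached without the bladder library of Ctrl mouse 788. Unscaled TPM shifted the median tissue difference of all genes to -0.25 from 0.02, and *Ret* was then called (-1.27, limma adjusted p = 0.0350).

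These log2 differences turned sign. In colon, *Prph* was -0.0172 with unscaled TPM, -0.0047 in a single fit of 12 libraries, and -0.26 to 0.19 with 1 library left out, and *Uchl1* -0.27 to 0.0733. In bladder with 1 library left out, *Elavl4* was -0.87 to 0.45, *Nos1* -0.48 to 1.07, *Vip* -0.26 to 1.34, *Prph* -0.72 to 0.92, *Ret* -0.43 to 1.33, and *Snap25* -0.60 to 1.32, and *Elavl4* was 0.17 without the 3 libraries. In the tissue comparison, *Nos1* was 0.26 and *Snap25* 0.59 in Ctrl libraries alone, 0.25 and 0.49 without the 3 libraries, and *Snap25* -0.58 to 0.38 with 1 library left out. In the difference of genotype effects, *Tac1* was 0.0434 with a pseudocount of 1 TPM, 0.082 without the 3 libraries, and -2.80 to 0.40 with 1 library left out, *Vip* -1.12 to 0.48, and *Prph* -0.92 to 0.71.

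TPM keeps no read counts, so counting error was not estimated. Depth limits the values of *Chat* and *Elavl4*, whose coverage was at most 0.602 and 0.801 reads per base.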
